A study of Citrus sinensis with 10 samples.

Results

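Fruit RNA of the sweet orange (Citrus sinensis) bud mutant Hong Anliu was compared with that of its wild type, Anliu, at 150 days after flowering, on the 2 arrays of that time point out of 10 in the series. A bud mutant is a branch with a changed trait that is propagated by grafting, so mutant and wild type otherwise share their origin. Both arrays held the same pair of extracts, mutant R2 and wild type CK2, with the mutant in Cy5 on the first and in Cy3 on the second. The other 8 arrays hold pairs of 120, 170, 190 and 220 days, 2 arrays each, with extracts of their own. The labels name the material only as fruit and do not say how many trees or fruits gave an extract. The arrays carried 5856 cDNA clones, each printed as 3 spots and named by plate, row and column, and 5852 clones passed the filter on dim signal.

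Sweet orange fruit ripens without a burst of ethylene. As it ripens, chloroplasts turn into chromoplasts, chlorophyll is lost, carotenoids and sugars build up and acids are used. Hong Anliu is known for red flesh, which comes from lycopene, a carotenoid formed before the rings of beta-carotene are closed. None of the 5856 clone names matched the gene table at hand (0 matches among 29331 genes), so clones are described by name, and neither carotenoid genes nor the tissue could be checked by marker genes.

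Ratios are given as the log2 of mutant divided by wild type, so that 1 stands for 2-fold. Each is relative to the typical clone of its array, as the normalization sets that clone near 0. The dye-swapped arrays are 1 replicate of 1 pair of extracts, so the SD between them is technical and no test of mutant against wild type is possible at 150 days. The dye-swapped arrays correlated across clones at r = 0.885 (Spearman's rho 0.850, 5851 clones). The median absolute difference between the arrays was 0.195, and 95% of the clones differed by less than 0.679. The 3 spots of a clone had a median SD of 0.120 on the first array and 0.0826 on the second. Of the control spots, Y5 stood at 3.67 and 3.46 on the arrays and Y6 at -3.01 and -3.15, so both dye orientations gave these controls the same direction.

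At 150 days 420 clones were at least 2-fold higher in the mutant on both arrays (7.18% of 5852) and 325 were at least 2-fold lower (5.55%). These counts have no biological replicate. Together they make up 745 clones, or 12.7%, and 4 clones were 2-fold in opposite directions on the arrays. The middle of the distribution was narrow, with 59.3% of the clones within 0.5 of 0 and the quartiles at -0.37 and 0.40. Its upper tail was the longer one, with a 99th percentile of 2.48 against a 1st percentile of -1.92.

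The lean towards higher clones grew with the size of the difference. At 1.5-fold on both arrays 844 clones were higher and 847 lower, which is an even split. At 3-fold 189 were higher and 76 lower, and at 4-fold 128 were higher and 30 lower. Thus 81.0% of the 4-fold clones were higher in the mutant. Of the 128, 111 fall in 1 group of clones with like profiles, described below. Only clone 9.C.10 exceeded 8-fold on both arrays. The median ratio was 1.63 (quartiles 1.29 and 2.26) over the 420 higher clones and -1.30 (quartiles -1.67 and -1.18) over the 325 lower clones. All 6 spots were above 0 in 417 of the 420, and all 6 were below 0 in 324 of the 325. With Y1 to Y4 taken as the zero of each array, which puts the median clone at -0.215, the lean turned: 289 clones were higher and 623 lower. With R's loess function as smoother the 2-fold split was near even, at 392 higher and 382 lower.

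**Figure D1:**
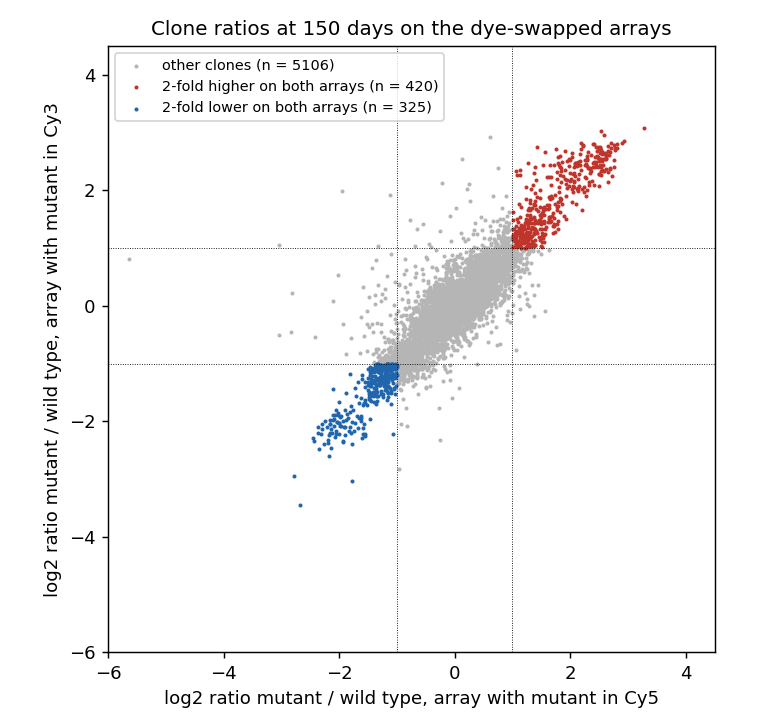
Log2 ratio of mutant over wild type for each clone at 150 days, on the array with the mutant in Cy5 (horizontal) and on the array with the mutant in Cy3 (vertical); dotted lines mark 2-fold. The 420 higher clones (red) have a median ratio of 1.63 and the 325 lower clones (blue) one of -1.30, with overlapping distances from 0. Most other clones (grey) lie along the diagonal.

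Clone 9.C.10 had the highest ratio. Its mutant signal was 2488 and 3152 on the arrays and its wild type signal 457 and 453, in intensity units of the scanner. The ratio was 3.28 on the first array and 3.08 on the second, or 3.18 ± 0.14 (SD, n = 2 arrays), a 9.05-fold difference. It was 2-fold higher at 170 days (2.89) and 190 days (4.37) as well, and no other clone had a profile like it over the 10 arrays (0 clones at a correlation above 0.97).

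The clones next in rank resembled one another closely. Clone 60.G.1 had mutant signals of 3463 and 2164 against wild type signals of 804 and 363, and stood at 2.90 ± 0.06 (SD, n = 2 arrays). Clone 46.G.9 stood at 2.85 ± 0.06, with mutant signals of 4556 and 3306 against 1052 and 577. Clone 46.H.7 gave 2.81 on either array. These 3 clones lie near 0 at 120 days, between -0.16 and 0.05, and are among 8 of the 10 highest clones that share 1 profile. The others are 61.E.6 (2.77), 45.A.1 (2.77), 45.G.9 (2.77), 50.B.11 (2.76) and 45.H.5 (2.76). At 170 days the 8 lay between -1.55 and -1.32, and at 190 days between 1.91 and 2.26. Clone 60.G.1 had 136 clones at a correlation above 0.97 over the 10 arrays. All 136 were 2-fold higher at 150 days too, in part because the correlation includes the arrays of 150 days. The files do not tell whether they are copies of 1 cDNA.

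Clone 7.H.8, also among the 10 highest, had a second kind of profile. Its mutant signal was 5168 and 4059 and its wild type signal 1480 and 615, which gave 2.53 and 3.02 on the arrays. In the mutant it was lower at 170 days (-2.18), and it was higher both at 190 days (1.46) and at 220 days (1.89). At 220 days the 8 clones above stood lower, between 0.57 and 0.75.

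The lowest clone was 15.H.6. Its mutant signal was 485 and 337 and its wild type signal 5486 and 4507, and its ratio was -2.69 and -3.45, or -3.07 ± 0.54 (SD, n = 2 arrays). The arrays differed more for this clone than for the other 19 of the 10 highest and 10 lowest. At the other time points it stood at -0.65, -2.05, -1.77 and -2.78, so it was 2-fold lower from 150 days on.

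Clones 12.C.7 and 12.G.11 lie on the same plate and had like profiles (each was the other's only clone at a correlation above 0.97). The mutant signal of 12.C.7 was 1359 and 1257 against 14649 and 11540 in the wild type, and its ratio was -2.87 ± 0.11 (SD, n = 2 arrays). For 12.G.11 the mutant gave 3125 and 4541 against 21941 and 26412, and the ratio was -2.42 ± 0.09. Both were among the brightest of the named clones in the wild type. At 170 days they stood on the other side, at 2.77 and 2.20, and at 190 days at 0.59 and 0.66.

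A set of low clones was as low at 120 days as at 150 days. Clone 39.G.5 had mutant signals of 545 and 697 against 5205 and 4341, with a ratio of -2.39 ± 0.06 (SD, n = 2 arrays) at 150 days and -2.16 at 120 days. Clones 38.F.4 (-2.33), 61.C.9 (-2.3) and 40.C.10 (-2.28) behaved alike, with -2.23, -2.27 and -2.07 at 120 days. By 220 days these 4 clones stood between 0.40 and 1.23. Clones 46.G.10 (-2.38) and 40.E.1 (-2.28) had the reverse order, since they were near -0.46 and -0.45 at 120 days and at -3.87 and -3.74 at 190 days. Clone 31.B.2 (-2.37 ± 0.13) was the only clone of the 325 that was 2-fold lower at each of the other 4 time points too.

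**Figure D2:**
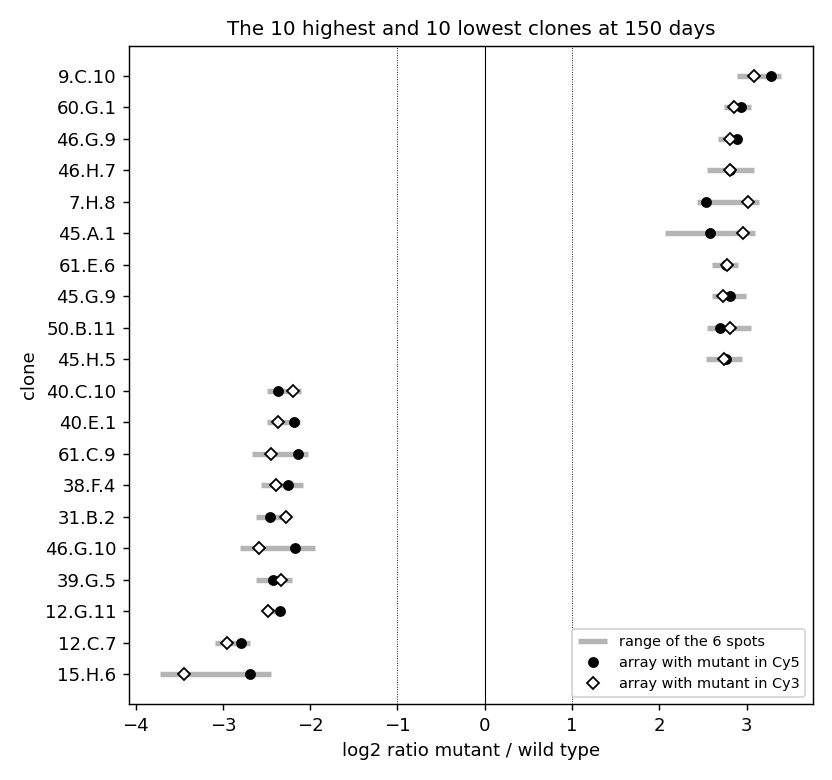
Log2 ratio of mutant over wild type at 150 days for the 10 highest and 10 lowest clones with both genotypes above background; filled circles and open diamonds are the arrays with the mutant in Cy5 and in Cy3, and grey bars span the 6 spots. The arrays lie close together for most clones, and 15.H.6 has the widest gap (-2.69 and -3.45).

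The authors' deposited table of lowess ratios, which gives 1 linear ratio per clone and time point, lists a ratio at 150 days for 5548 clones. Of the 420 higher clones 361 had a ratio of 2 or more in the authors' deposited table, and of the 325 lower clones 261 had 0.5 or less there. Among all 5548 clones with a ratio, 459 had 2 or more and 377 had 0.5 or less. Those ratios come from the same arrays by which the clones were chosen, so the overlap is largely built in. The authors' deposited table gives 8.70 for 9.C.10, 4.83 for 60.G.1, 0.156 for 15.H.6 and 0.116 for 12.C.7, so 12.C.7 is the lower of the last pair there and 15.H.6 in the ratios computed here. As linear ratios, 9.C.10 stood at 9.05 and 60.G.1 at 7.45 in the ratios computed here. For 7.H.8 the authors' ratio was 4.105 against 6.87 here, and for 50.B.11 it was the larger one, 8.09 against 6.75.

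The clones were then followed through the other time points, which hold separate extracts of both genotypes. Across clones, the ratios of 150 days correlated with those of 190 days at r = 0.657 (rho 0.556). The correlation was 0.371 (rho 0.379) with 120 days and 0.202 (rho 0.0984) with 220 days. With 170 days the correlation was -0.315 (rho -0.243), and it lay between -0.318 and -0.283 for the 4 pairs of single arrays. The labels and column headers give the dyes at 170 days as at the other time points, so the direction was kept, and counts are also given with it turned. Control spots Y5 and Y6 stood at 3.39 and -2.68 at 170 days, the same directions as at each other time point. What these controls say of the genotype of the extracts was not tested. Clones are not independent replicates, and 1 pair of extracts per time point allows no test of these overlaps. Counting both directions, the 2-fold share of all clones was 8.82% on the earliest pair of arrays (120 days). It was 25% at 170 days, the largest of the series, and 11% and 6.56% on the last 2 pairs. All these calls are relative to the typical clone of each array. Control spots Y1 to Y4 stood between 1.82 and 2.42 at 120 days and between -1.31 and -0.80 at 220 days. Overlaps with these controls as the zero are not given here.

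Of the 420 clones higher at 150 days, 216 (51.4%) were also 2-fold higher at 190 days, where 6.22% of all clones were. At 220 days 69 (16.4%) were higher, against 4.37% of all clones, and at 120 days only 5 (1.19%), against 3.62%. At 170 days 14 (3.33%) were higher and 324 (77.1%) were 2-fold lower, where 7.95% and 17.1% of all clones were. With the sign at 170 days turned, the 324 would be higher in the mutant there. The median ratio of the 420 was near 0 before (0.10 at 120 days) and -1.37 at 170 days. Later it was 1.13 (190 days) and 0.69 (220 days). The commonest pattern, in 167 clones (39.8% of the 420), was higher at 150 and 190 days and lower at 170 days. In another 90 (21.4%) the clones were higher at 150 days and lower at 170 days alone. The share of all clones with the same calls at the other time points is not given here.

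The 325 lower clones had a different distribution over time. At 120 days 122 (37.5%) were also 2-fold lower, against 5.19% of all clones, and at 190 days 127 (39.1%) were, against 4.8%. Of the 122, 5 clones (4.1%) were lower at 190 days too. Few clones were lower at both over the whole array as well, 7 in all, or 2.3% of the 304 lower at 120 days. At 170 days 80 (24.6%) were lower and 16 (4.92%) higher, beside 17.1% and 7.95% of all clones, and the median ratio of the 325 there was near 0 (0.00195). At 220 days 39 (12.0%) were lower and 28 (8.62%) higher, against 2.19% and 4.37% of all clones. With the sign at 170 days turned, 80 would be higher and 16 lower there.

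**Figure D3:**
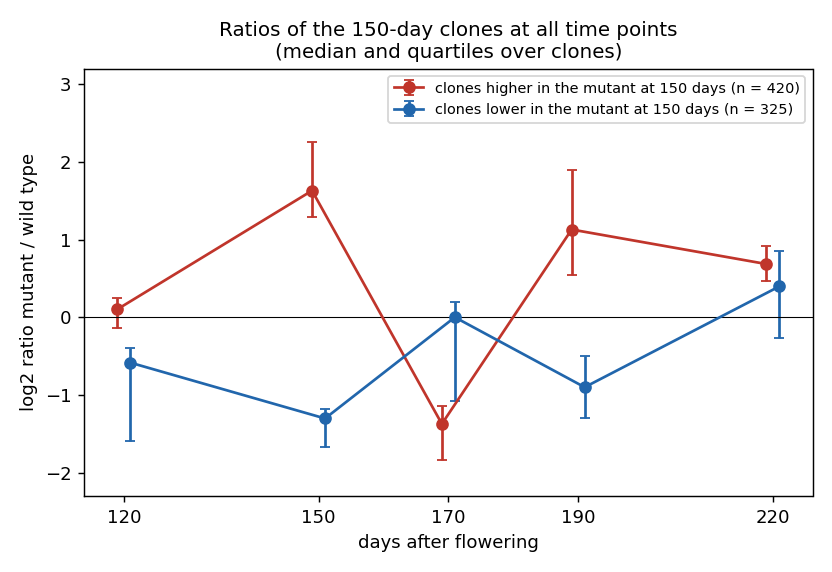
Median log2 ratio of mutant over wild type, with quartiles over clones, at each time point for the 420 clones higher and the 325 clones lower in the mutant at 150 days (the values at 150 days follow from how the clones were chosen). The higher clones start near 0 at 120 days (0.10), lie below 0 at 170 days (-1.37) and above 0 at 190 days (1.13), while the lower clones have medians of -0.58 at 120 days and -0.90 at 190 days.

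Clones 2-fold different at 150 days and at no other time point numbered 55 higher (13.1% of 420) and 71 lower (21.8% of 325). The share of all clones that were 2-fold at a single time point is not given here. Among the higher ones, 14.F.2 stood at 2.06 on either array, with mutant signals of 3288 and 3669 against 1365 and 1070. Clones 9.E.2 (1.72 ± 0.24, SD, n = 2 arrays) and 7.F.2 (1.69 ± 0.08) came next. All 3 nonetheless lay between -1.01 and -0.89 at 170 days and between 0.85 and 1.12 at 190 days, just under the limit or past it on 1 array only, and all 3 fall in the largest group of clones with like profiles described below.

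Among the lower ones, 18.B.7 lay near 0 outside 150 days. Its mutant signal was 2334 and 2610 against 13050 and 14353 in the wild type, and its ratio was -2.07 ± 0.24 (SD, n = 2 arrays). At the other time points it lay between -0.48 and 0.19. Clone 2.F.9 stood at -1.80 ± 0.21, and elsewhere between -0.42 and 0.07. Clone 38.E.3 stood at -1.51 ± 0.06 and was slightly above 0 at 120, 190 and 220 days (0.30, 0.55 and 0.36). Of the clones 2-fold at 150 days, 15 of the 325 lower and 1 of the 420 higher were within 1.5-fold of 0 at each other time point. The share of all clones within that limit is not given here.

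Whether the ratio at 150 days departs from the other time points was tested with limma, with 1 value per time point and the spread among the other 4 as the error. That spread includes development, and the lone value at 150 days is assumed to vary as they do. In limma 0 of 5846 clones passed an adjusted p of 0.05 (0.0%), and the smallest adjusted p was 1.0. At an unadjusted p under 0.05 there were 37 clones (0.633%), 4 higher and 33 lower, and 5% of the clones tested would be 292.3. Leaving out 1 time point moved that count: it was 13 when 120 days was dropped, 59 for 170 days, 170 for 190 days (154 of them higher) and 37 for 220 days, with 0 past the adjusted p each time. Clone 18.B.7 had the smallest p, with a difference of -1.94 (SE 0.57, adjusted p = 1.0 in limma). Clones 34.C.3 (-2.09) and 22.D.8 (-2.18) followed, and were 2-fold higher in the mutant at 120 and 220 days but 2-fold lower at 150 days (-1.28 and -1.26). In the other direction 10.B.7 came first with a difference of 3.30 (SE 1.19, adjusted p = 1.0 in limma). Its ratio was 2.06 at 150 days but -3.28 and -1.39 at 170 and 190 days. Clones 16.F.7 (2.0) and 14.F.2 (1.93) were next. None of these clones can be said to differ at 150 days from the spread over the season.

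The levels of each genotype show which side of the ratio stood apart. After quantile normalization of all 20 channels, the 420 higher clones had median log2 levels in the mutant of 10.37, 12.51, 10.89, 12.68 and 12.67 from the earliest time point to the latest. In the wild type the same clones had 10.29, 10.69, 12.18, 11.41 and 11.96. The medians of the genotypes were thus close at 120 days, relative to the typical clone of each channel. With control spots Y1 to Y4 as the zero the mutant would lie lower there, as these stood between 1.82 and 2.42 in ratio at 120 days. The mutant was high at 150 days when the wild type was near its level of 120 days, and the wild type was the higher one at 170 days. If the genotypes at 170 days were exchanged, the mutant would be the higher one there too (12.18 against 10.89). Array, collection and genotype cannot be told apart here, and a single pair of extracts per time point allows no test.

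In the mutant 372 of the 420 clones (88.6%) were at least 2-fold above their 120-day level at 150 days, where 13.7% of all clones were. In the wild type 62 (14.8%) were, against 6.49% of all clones. These counts do not use 170 days. The 420 were chosen by their ratio at 150 days. Their excess over other clones, here and in the shares below, follows in part from that choice. At 170 days, as labelled, 357 of the 420 were at least 2-fold below their 150-day level in the mutant (15.7% of all clones), and 276 at least 2-fold above it in the wild type (8.27% of all clones). With the genotypes of 170 days exchanged, these counts would be 39 and 68, against 5.3% and 9.06% of all clones. Set against the mean of 120 and 170 days, the median level at 150 days was 1.82 above it in the mutant and 0.53 below it in the wild type (-0.53). With the genotypes of 170 days exchanged, these values would be 1.17 and -0.07. The departure was larger in the mutant than in the wild type for 391 of the 420 clones (93.1%), and for 64.9% of the 5107 clones that were not 2-fold different. With the exchange the shares would be 84.8% and 48.0%.

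For the 325 lower clones the mutant also stood further from its neighbouring time points. These clones too were chosen by their ratio at 150 days, so their contrast with other clones is in part built in. At 120, 150 and 170 days their median level was 11.95, 10.91 and 12.04 in the mutant, and 12.98, 12.51 and 12.22 in the wild type. At 150 days the mutant lay at -0.99 relative to the mean of 120 and 170 days and the wild type at 0.07. The departure was larger in the mutant for 251 of the 325 clones (77.2%), beside the 64.9% of clones not 2-fold different. With the genotypes of 170 days exchanged, the medians would be -0.93 and 0.02 and the share 81.8%, beside 48.0%. With levels set against the control spots Y1 to Y4 the wild type value became -0.927, but the median of all clones then lay at -0.98. Relative to the median of all clones, the wild type value was 0.04 as first normalized and 0.05 against the control spots, and the mutant value -0.85 and -0.89.

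**Figure D4:**
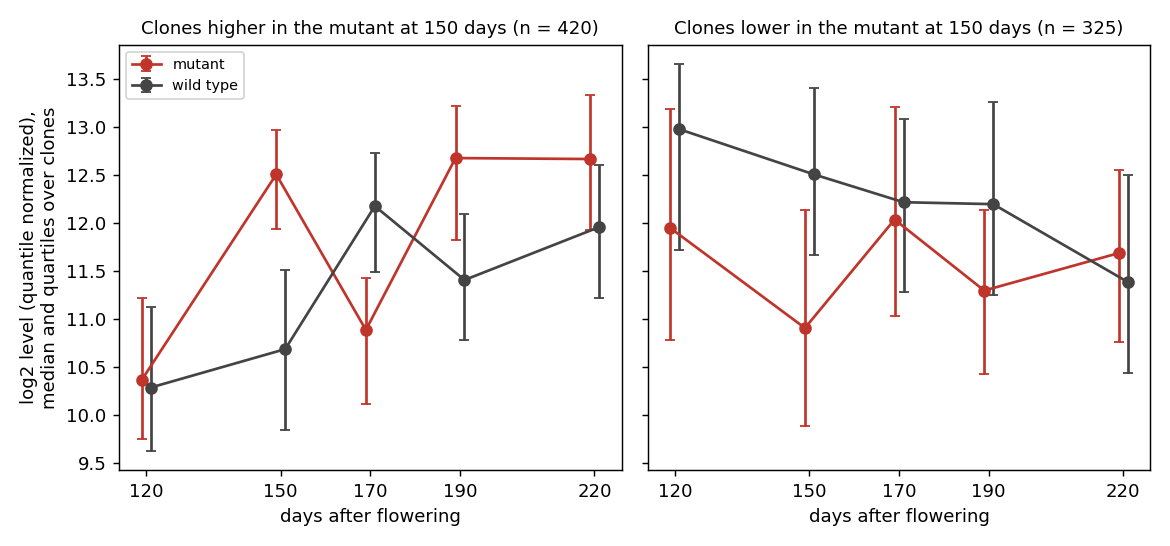
Median log2 level with quartiles over clones, after quantile normalization, in the mutant (red) and the wild type (dark grey) at each time point, for the 420 higher and the 325 lower clones of 150 days. The higher clones reach 12.51 in the mutant at 150 days against 10.69 in the wild type, and the lower clones 10.91 against 12.51. The gaps at 150 days follow from how the clones were chosen.

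Many clones had nearly the same time course, so the clones of each direction were grouped by their ratios over the 10 arrays (average linkage, cut at a correlation of 0.9). The grouping used the ratios of 150 days and is a description. The 420 higher clones fell into 22 groups, and the 3 largest held 363 of them. The largest, of 197 clones from 52 plates, includes 60.G.1, 14.F.2 and 16.F.7, and had a median of 2.23 ± 0.44 at 150 days (SD over clones). Its medians were 0.12 ± 0.21 before, at 120 days, then -1.33 ± 0.28 and 1.90 ± 0.39 at 170 and 190 days, and 0.63 ± 0.25 at 220 days. It held 111 of the 128 clones that were 4-fold higher. The second, of 114 clones and with 7.H.8 at its top, was higher at 150 days (1.38 ± 0.44) and at 220 days (1.17 ± 0.47) and lower at 170 days (-2.19 ± 0.69). Of its clones 64 were 2-fold higher at 220 days, against 0 in the largest group. A group of 7 clones with 5.E.8 at its top ran otherwise, with medians of 0.995, 1.17 and 1.59 at 120, 150 and 170 days and -0.78 at 190 days.

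The 325 lower clones were spread over more groups, 32, of which the 3 largest held 181 clones. The largest, of 68 clones with 39.G.5, had medians of -2.03 ± 0.35, -1.92 ± 0.37 and -1.10 ± 0.28 at 120, 150 and 170 days, and was at 0.76 ± 0.33 by 220 days. It held 17 of the 30 clones that were 4-fold lower. The second, of 66 clones, stood at -1.17 at 150 days and -1.34 at 190 days, with -0.45 and 0.10 at 120 and 170 days. A group of 22 clones with 46.G.10 stood at -0.33, -1.98, -1.31, -3.30 and -3.25 in the order of the time points, and held 7 of the 4-fold lower clones. The group of 11 clones around 38.E.3 was the largest with no clone 2-fold different at any other time point, with -1.29 ± 0.13 at 150 days and medians between 0.0147 and 0.39 elsewhere. A group of 10 clones from plates 1 to 29, with 23.H.1 at its lowest, was at -1.58 ± 0.35 at 150 days and 1.98 ± 0.26 at 170 days.

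**Figure D5:**
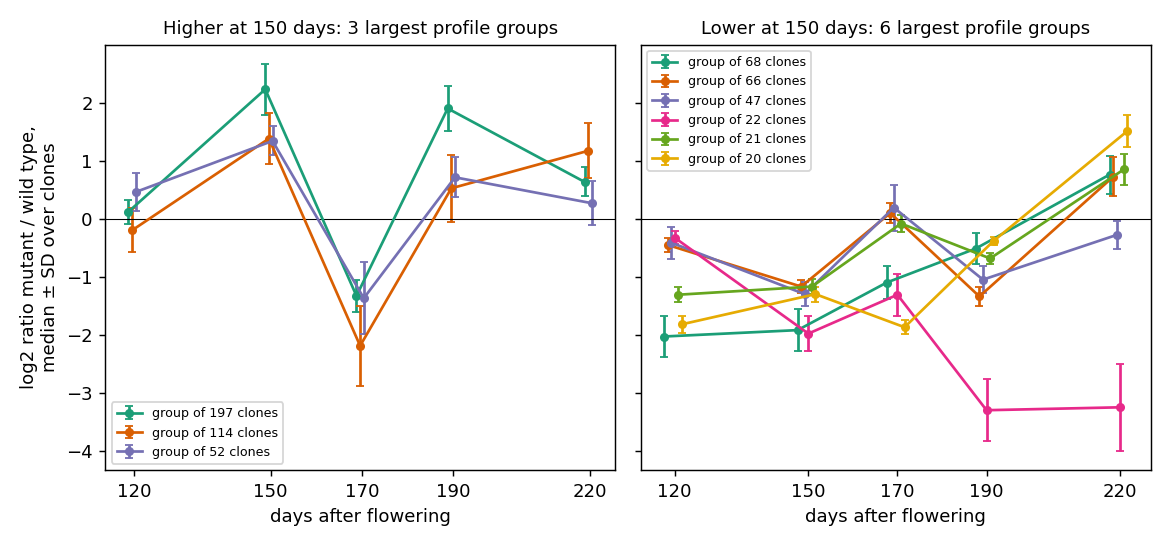
Median log2 ratio of mutant over wild type, with SD over clones, at each time point for the largest groups of clones with like profiles, among clones higher (left) and lower (right) at 150 days. The direction at 150 days follows from how the clones were chosen. The medians of the 3 higher groups also share their direction at 170, 190 and 220 days, whereas the lower groups differ among themselves. The group of 68 is as low at 120 days (-2.03) as at 150 days. The group of 22 is lowest at 190 days (-3.30), and the group of 47 is lowest at 150 days (-1.30).

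The clones of either direction came from all parts of the array, but not evenly. Each of the 48 printing blocks held clones of both directions, from 3 to 26 higher and from 1 to 15 lower, and 60 of the 61 plates held at least 1 higher clone. Plate 19 had the most higher clones, 16 of its 96, and plate 30 the most lower clones, also 16 of 96. Plates 1 to 29 held 47.6% of all clones, 211 of the 420 higher and 82 of the 325 lower. By profile the shares differed further: plates 1 to 29 gave 19.3% of the largest higher group and 89.5% of the second, and 0% of the group of 46.G.10. The median ratio was 0.107 on plates 1 to 29 and -0.0441 on plates 30 to 61. That difference of 0.151 was 0.0206 with the normalization fitted within printing blocks and 0.238 with median centring. Its part in the counts was not tested.

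Signal strength was not the same for called and other clones. The clones were divided into 5 bins of equal size by mean level. In the dimmest bin 2.48% were higher and 2.73% lower, in the middle bin 12.1% and 6.24%, and in the brightest 4.61% and 5.89%. The arrays differed by a median of 0.244 in the dimmest bin and 0.169 in the brightest. Both genotypes were above background on both arrays for 5812 of the 5852 clones, which include 419 of the 420 higher and 323 of the 325 lower clones.

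The mutant was not above background on either array for 8 clones and the wild type for 3, 2 of which were the same clones. Of those dim in 1 genotype, 0 met the rule for a 2-fold call. The brightest of them, 18.G.2, had a wild type signal of 3315 on the first array and 7 on the second, so its arrays disagreed, at -5.63 and 0.81, and no fold is given. Clones 49.H.2 and 53.F.1 came next, with signals of at most 206 in either genotype.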

How the data were processed

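The authors deposited spot intensities of both dyes for each array, named by dye and extract per the file headers; values below 0 and blanks near 0 show that background was subtracted. The deposited ratio of each spot is mutant over wild type, normalized by the authors, and their series table holds its log2, as the values show. RNA (5 µg) was amplified and labelled with Klenow enzyme, per the labels' protocols. Scanner, background method and program: not given in the sources used here.

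Intensities at or below 0 were left out (12 and 24 clone spots at 150 days). Median clone intensity at 150 days was 2080 and 2308 for the mutant and 3319 and 2604 for the wild type; over all arrays it was 1036 to 4556. No clone spot at 150 days was at the top of the scale (0 on both arrays). Log2 ratios were normalized by a global loess (span 0.3, 4 iterations, control spots at weight 0), turned to mutant over wild type, and averaged over 3 spots. Clones were kept if either dye exceeded the 95th percentile of blank and 50% DMSO spots on at least 5 of 10 arrays. A call means 2-fold in the same direction on both arrays. limma 3.58.1 in R 4.3.3 tested 150 days against the other 4 time points over 5846 clones (5 values, 3 residual degrees of freedom, two-sided, Benjamini-Hochberg, 0.05), and was tested on simulated data. The number of arrays limits precision.

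Named clones are the 10 highest and 10 lowest with both genotypes above background, the 3 in each direction that were 2-fold at no other time point, the 3 in each direction with the smallest p, and the 3 brightest with 1 genotype not above background. Clones 5.E.8 and 23.H.1 were named after their values were seen. The comparison, lists and plate split were chosen with earlier results of these data known. Gene lists and tissue markers could not be run, as clones carry no gene names. Alternatives were other normalizations, centrings, filters, rules for a call and single arrays.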

Additional observations from a re-analysis of the deposited data

Results flagged for a closer look

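Clones were marked for a closer look where both arrays of 150 days lay 2-fold on one side and both arrays of another time point 2-fold on the other. The difference between time points was not tested for these clones other than in the limma fit, in which none passed. Of the clones higher at 150 days, 324 (77.1%) were 2-fold lower at 170 days, where 17.1% of all clones were. Only 1 each (0.238%) was lower at 120, 190 and 220 days, against 5.19%, 4.8% and 2.19% of all clones. Of the clones lower at 150 days, 16 (4.92%) were 2-fold higher at 170 days, against 7.95% of all clones. At 120 days 5 (1.54%) were higher, against 3.62% of all clones, and at 220 days 28 (8.62%), against 4.37%. Among named clones, the ratio at 170 days was -1.48 for 60.G.1, -1.55 for 46.G.9, -1.46 for 46.H.7, -2.18 for 7.H.8, -1.32 for 61.E.6 and -1.35 for 45.A.1. It was -1.53 for 45.G.9, -1.42 for 50.B.11, -1.50 for 45.H.5 and -3.28 for 10.B.7, all of them higher at 150 days. It was 2.77 for 12.C.7 and 2.20 for 12.G.11, which were lower at 150 days. At 220 days 61.C.9 stood at 1.23, 34.C.3 at 1.30 and 22.D.8 at 1.52, each of them lower at 150 days. With the sign at 170 days turned, the clones named for that time point would have 1 direction at 150 and 170 days.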

How the results depend on the processing

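The 745 clones became 565 where all 6 spots had to be 2-fold and 662 to 954 under the other normalizations, filters and call rules tried, apart from those named next, with more higher than lower clones in each. Centring on Y1 to Y4 gave 912, of which 623 were lower, or 31.7% higher against 56.4%. At 3-fold there were 265 clones, 189 higher and 76 lower. A single array gave 987 to 1066 clones, 516 to 550 higher and 471 to 516 lower. With R's loess function as smoother, chosen after seeing the data, 392 were higher and 382 lower (50.6% higher). The test against the other time points called 0 clones under each alternative, including the fits on 10 arrays with no replicate block (113 at an unadjusted p under 0.05 in limma) and with the replicate block (88). The replicate number marks the dye orientation of the same extracts. The smallest adjusted p was 1.0 with and without the block. With the sign at 170 days turned, 94 clones had opposite directions at 150 and 170 days, in place of 340. Against the control spots, the levels at 150 days relative to 120 and 170 days were 2.08 (mutant) and -1.59 (wild type) for higher clones and -0.801 and -0.927 for lower clones, where the last changed sign. With the genotypes of 170 days exchanged, chosen after seeing the data, they were 1.17, -0.0697, -0.931 and 0.0198 in the same order. The plate difference of 0.151 was 0.0206 within printing blocks and 0.238 with median centring. The cause of these shifts was not tested. Ratios of the named clones with both genotypes above background kept their sign throughout, in 234 values that moved by less than the SD between arrays and 96 that moved by more. Using a single array can never move a ratio past that SD. The rules for intensities at or below 0, top-of-scale spots and spots without a class left these ratios practically unchanged. The 234 thus include values that could not move, and the tally is no measure of stability. One pair of extracts limits every value.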
